A study of Homo sapiens with 6 samples.

Results

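The cytosolic ribosomal protein genes are the genes that encode the protein parts of the ribosome outside mitochondria. They were taken as the protein-coding genes with an RPL or RPS name and number and at most 1 letter before any further digits, together with RPLP0, RPLP1, RPLP2 and RPSA, leaving out the S6 kinase genes and chromosome Y. This gave 84 of the 58735 genes in the table. Of these, 46 encode proteins of the large subunit, 31 encode proteins of the small subunit, and 7 are paralogs that resemble another member (RPL3L, RPL7L1, RPL10L, RPL22L1, RPL26L1, RPL39L and RPS27L). FAU also supplies a ribosomal protein but carries another name, and RPL36AL, a paralog of RPL36A, ends in a pair of letters that the name rule did not take. Neither is among the 84. The RNA data come from 6 libraries that carry the label BxPC-3, an established human cell line from a pancreatic adenocarcinoma, grown in RPMI-1640 medium with 10% fetal bovine serum. The 3 control libraries received DMSO (here DMSO 1 to 3) and the other 3 received GSK3326595 (inhibitor 1 to 3), a small-molecule inhibitor of PRMT5, which dimethylates arginine residues symmetrically. Both groups share the labelled cell line and medium and carry no other labelled agent. How much inhibitor was added, and for how long, is not stated in the sources at hand. The series' design names a knockdown of PRMT5 where the sample labels name the inhibitor, and the samples' own labels were used.

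A ribosome pairs a small subunit, which reads the codons of an mRNA, with a large subunit, which joins the amino acids. Most ribosomal proteins are normally present in 1 copy per ribosome. Mammalian ribosomal protein mRNAs are short and abundant, and most begin with a 5′ terminal oligopyrimidine tract (TOP), a C followed by an unbroken run of C and U, through which LARP1 and the mTORC1 kinase control their translation. Several of the genes also carry small nucleolar RNA (snoRNA) genes in their introns, and some of the proteins act outside the ribosome, such as RPL5 and RPL11, which bind the p53 regulator MDM2.

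The TOP tract is shown at the start sites of a few members, to let the paralogs be read beside their partners. Each window holds 30 bases, from 15 before to 15 after the RefSeq start (GRCh38.p14), on the gene's own strand, and capitals mark the longest run of C and T that reaches within 5 bases of the start (for a gene with several entries, in the entry with the longest run). RPL7A, RPS12, RPSA, RPLP0 and RPS27 are among the members described in full below.
RPL7A (chr9:133348203-133348232, plus strand): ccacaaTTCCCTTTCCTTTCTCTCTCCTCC
RPS12 (chr6:132814554-132814583, plus strand): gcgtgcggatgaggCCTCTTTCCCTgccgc
RPSA (chr3:39406705-39406734, plus strand): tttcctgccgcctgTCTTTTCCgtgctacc
RPLP0 (chr12:120201097-120201126, minus strand): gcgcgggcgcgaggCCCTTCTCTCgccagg
RPS27 (chr1:153990747-153990776, plus strand): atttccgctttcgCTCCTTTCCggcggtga
RPS27L (chr15:63157463-63157492, minus strand): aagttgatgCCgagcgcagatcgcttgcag
RPL22 (chr1:6199581-6199610, minus strand): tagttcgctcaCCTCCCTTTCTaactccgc
RPL22L1 (chr3:170870181-170870210, minus strand): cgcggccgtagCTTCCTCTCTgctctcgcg
RPL26 (chr17:8383179-8383208, minus strand): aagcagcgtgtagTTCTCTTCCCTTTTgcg
RPL26L1 (chr5:172958714-172958743, plus strand): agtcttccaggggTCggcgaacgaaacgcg
RPL7L1 (chr6:42879601-42879630, plus strand): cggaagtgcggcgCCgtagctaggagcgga
A run of at least 8 bases, each C or T, was found at the start of 50 of the 67 members with an entry in the RefSeq promoter table (74.6%), searched on the gene's own strand only. The same search found a run in 15.3% of the genes tested that had an entry, in 13.7% of all genes of that table, and in 10.1% of mitochondrial ribosomal protein genes. Among the members that are not paralogs the share was 79.0% (49 of 62), and among the paralogs RPL22L1 alone had a run (1 of 5). In RPL26L1, RPS27L and RPL7L1 the longest run that reaches within 5 bases of the start holds 2 bases. A match describes these letters and is not a test of a TOP mRNA.

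The libraries held 14087260 to 15724750 reads each, recovered as whole numbers from the deposited FPKM values (fragments per kilobase of listed gene length, scaled to library size). Whether replicates were grown as separate cultures is not labelled, and every p-value here reflects only the spread among these 6 libraries, part or all of which may be technical. PRMT5 stood at 23.2, 24.6 and 26.2 FPKM in DMSO 1 to 3 and 13.4, 12.8 and 12.1 FPKM in inhibitor 1 to 3, a log2 fold change of −0.90 (limma adjusted p = 0.00493). Inhibitor 2 stood apart: over the 13578 genes tested its correlation with inhibitor 1 and 3 on the log2 scale was 0.906 and 0.904, against 0.980 between inhibitor 1 and 3, and mitochondrially encoded genes took 11.3% of its reads against 4.70% to 6.03% in the other 5 libraries. Of 11 pancreatic ductal or epithelial markers 5 reached 1 FPKM in at least 1 library, and KRT19, PDX1, ESRP1 and CEACAM6, 4 in all, had 0 reads throughout. The summed level of the 11 was 675 to 755 FPKM with DMSO and 789.9 to 1042 FPKM with the inhibitor, and its part in the results below was not tested. The sum was carried by KRT8, at 253 to 283 FPKM with DMSO and 317 to 439 FPKM with the inhibitor, and KRT18, at 244 to 267 FPKM and 320 to 451 FPKM. KRT7 went the other way, from 154 to 177 FPKM with DMSO to 101 to 105 FPKM with the inhibitor, and SOX9 lay at 2.93 to 4.17 FPKM and 2.09 to 2.37 FPKM. CDH1 and EPCAM, the defining epithelial adhesion genes, stayed at 0.0884 to 0.496 FPKM and 0.108 to 0.341 FPKM. Several defining markers of the labelled cell type were thus at or near 0 in every library, and the identity of the cells was not tested. Of the fibroblast, leukocyte and endothelial markers 1 each reached 1 FPKM, with highest sums over the lists of 10.4, 1.34 and 1.46 FPKM, and none of the acinar markers did. Because of inhibitor 2 each comparison is given with all libraries and without it.

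The table lists for each gene the total length of its exons over all transcripts, which for the 84 members has a median of 2992 bases. The principal mRNA has a median of 858 bases, and the median ratio of listed to mRNA length is 3.05. FPKM therefore lies below the level per mRNA, most of all for genes with many long annotated forms. RPS2, a small-subunit protein of the mRNA entry channel, had the highest mean at 1062 FPKM (listed length 2413 bases). RPL7A at 972 FPKM, RPL13A at 666 FPKM and RPL8, a core large-subunit protein, at 639 FPKM followed. RPS29 is listed at 9845 bases with a principal mRNA of 486.5 bases, the median of its principal forms, and had a mean of 11.8 FPKM by the listed length and 239 by the length of the mRNA. On the mRNA scale RPS2 and RPL7A again stood highest, at 2602 and 2446. Of the 84 members 82 reached 1 FPKM in at least 3 libraries and were tested, so high levels in either group could admit a gene. RPL3L, a paralog of RPL3 known from muscle, stayed between 0.0232 and 0.378 FPKM, and RPL10L, a paralog of RPL10 known from testis, had 0 reads in every library, which allows at most 3 reads over the 6. For members tested, the lowest means were those of RPS10 and RPL36A at 1.78 and 2.25 FPKM.

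As a share of all reads, the members together took more in inhibitor 1 and 3 than in any DMSO library and less in inhibitor 2. The share was 5.02%, 5.01% and 5.22% in DMSO 1 to 3 and 6.01%, 3.25% and 5.83% in inhibitor 1 to 3. The 95% Wilson interval was 3.24% to 3.25% in inhibitor 2 and 6.002% to 6.03% in inhibitor 1, and such intervals cover counting error only. In this measure the groups overlapped, since the inhibitor libraries lay on both sides of the DMSO range. Without mitochondrially encoded reads in the total, the order was the same, with 5.27% to 5.48% in DMSO and 6.40%, 3.66% and 6.19% with the inhibitor. The subunits moved together. Large-subunit genes took 3.12% to 3.22% of reads in DMSO and 3.70%, 1.999% and 3.59% in inhibitor 1 to 3, while small-subunit genes took 1.86% to 1.98% and 2.29%, 1.23% and 2.22%. The ratio of large-subunit to small-subunit reads was 1.68, 1.68 and 1.63 in DMSO 1 to 3 and 1.62, 1.63 and 1.62 in inhibitor 1 to 3, so it stayed within a narrow range, also in inhibitor 2. The paralogs took 0.0240% to 0.0265% of reads in DMSO and 0.0237%, 0.0191% and 0.0211% in inhibitor 1 to 3. In bulk samples, fewer cells of a type and less RNA per cell cannot be told apart.

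**Figure D1:**
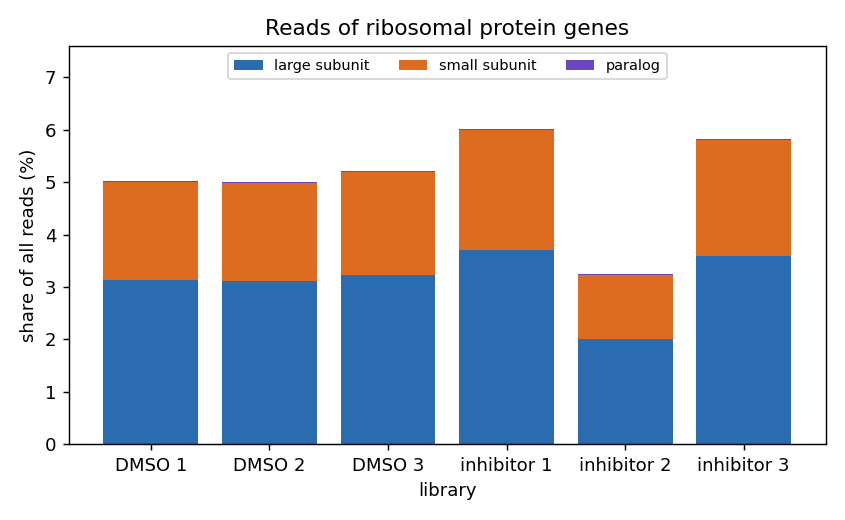
Share of each library's reads (percent, y axis) taken by ribosomal protein genes, by library (x axis), with 1 bar per library starting at 0, stacked by large subunit, small subunit and paralogs. Inhibitor 2, at 3.25%, lies below the DMSO libraries (5.01% to 5.22%), while inhibitor 1 and 3 lie above them at 6.01% and 5.83%.

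Gene by gene, inhibitor 2 held the lowest value of all 6 libraries for 74 of the 82 members tested (90.2%). Over all genes tested it was lowest for 36.2%. It lay below all 3 DMSO libraries for 74 members, against 46.8% of all genes tested. Of the 8 exceptions to its being lowest, RPL23A and RPL7L1 had their highest value there, and RPLP0, RPL7, RPL4, RPS3A, RPS29 and RPS10 lay between other libraries. The median log2 ratio to the DMSO mean over the members was −0.02, −0.03 and 0.05 in DMSO 1 to 3 and 0.22, −0.60 and 0.14 in inhibitor 1 to 3. Over all genes tested the same median ran from −0.07 to 0.01, but the low values of inhibitor 2 were shared by other short or related genes. It was lowest for 79.1% of the 526 other protein-coding genes with a principal mRNA of 500 to under 1000 bases, against 94.9% of the 39 members of that length, and for 67.9% of mitochondrial ribosomal protein genes. These differences were not tested. For 35 members inhibitor 1 and 3 lay above all DMSO libraries and inhibitor 2 below all of them. This split was seen for 42.7% of members and 6.48% of genes tested.

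**Figure D2:**
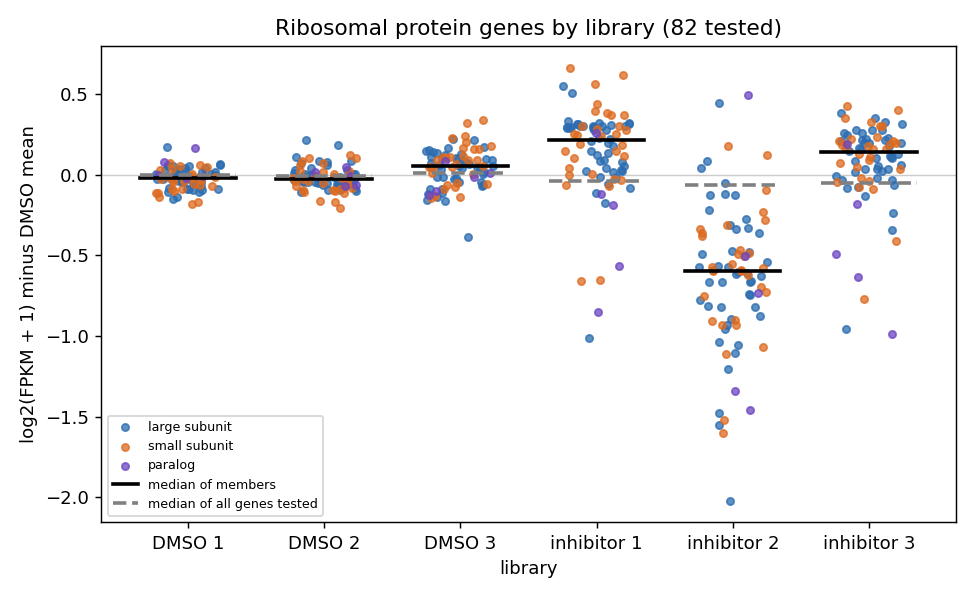
Log2 ratio of each of the 82 tested members to its DMSO mean (y axis), by library (x axis), with the median of the members as a black line and that of all genes tested as a grey dashed line. The medians are 0.22 and 0.14 in inhibitor 1 and 3 and −0.60 in inhibitor 2, where 76 of the 82 members lie below their DMSO mean.

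With all 6 libraries, 4 of the 82 members fell with the inhibitor and 0 rose (limma on log2(FPKM + 1), Benjamini-Hochberg adjusted p under 0.05), where 10.0% of all genes tested fell and 7.18% rose (17.2% called in all). The members that fell included the paralogs RPL22L1 and RPL26L1 and the large-subunit gene RPL17. At an unadjusted p under 0.05 there were 5 lower and 2 higher, where 4697 of the 13578 genes tested had such a p in either direction. With limma-voom on the recovered reads 4 members were again lower and 0 higher, where 2554 genes were called in all. The median log2 fold change of the members was −0.09, against −0.05 over all genes tested, with 26 members above 0 and 56 below. The groups did not overlap for 4 members with the inhibitor above and 8 with it below, against 19.2% and 26.7% of genes tested. The median standard error of a member was 0.231, so a change of this size in a single member was within the error. The 4 calls depended on the libraries used: 0 remained without DMSO 1, without DMSO 2 or without DMSO 3. Calls over all 13578 genes tested dropped as well, from 2339 to 478, 510 and 579 in these fits. Without inhibitor 1 the only member called was RPL22L1, and without inhibitor 3 it was RPL26L1, with 1091 and 1299 genes called in all.

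Without inhibitor 2, 29 members rose and 5 fell, where 17.5% of all genes tested rose and 23.1% fell (40.6% called in all). Rises thus made up 35.4% of the members tested and falls 6.10%. The median log2 fold change of the members was 0.18, against −0.05 over all genes tested, and 65 lay above 0. Groups did not overlap for 40 members with the inhibitor above and 9 with it below, against 28.6% and 36.4% of genes tested. For 39 members the value moved from below 0 with all libraries to above 0 without inhibitor 2. The rises ran from 0.22 to 0.55 on the log2 scale, or 1.17 to 1.46 times the DMSO mean in FPKM, and their adjusted p from 0.00488 to 0.0472. For 25 of the 29, inhibitor 2 itself lay below all 3 DMSO libraries, and 9 of the 29 had a value below 0 when it was included. The 4 falls seen with all libraries were called again with the same sign, and RPS10 was added. The number of rises also rested on single libraries. Leaving out DMSO 1, 2 or 3 as well gave 9, 14 and 40 rises. These fits called 3995, 4323 and 5495 of the 13578 genes tested in either direction, against 5513 with only inhibitor 2 left out. Leaving out inhibitor 1 or 3 as well let 1 inhibitor library stand for the group, and it was assumed to vary like DMSO. The median of the members was then 0.14 and 0.22. RPS12, RPSA, RPL22L1 and RPL26L1 were among the members called in each of these 5 fits.

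**Figure D3:**
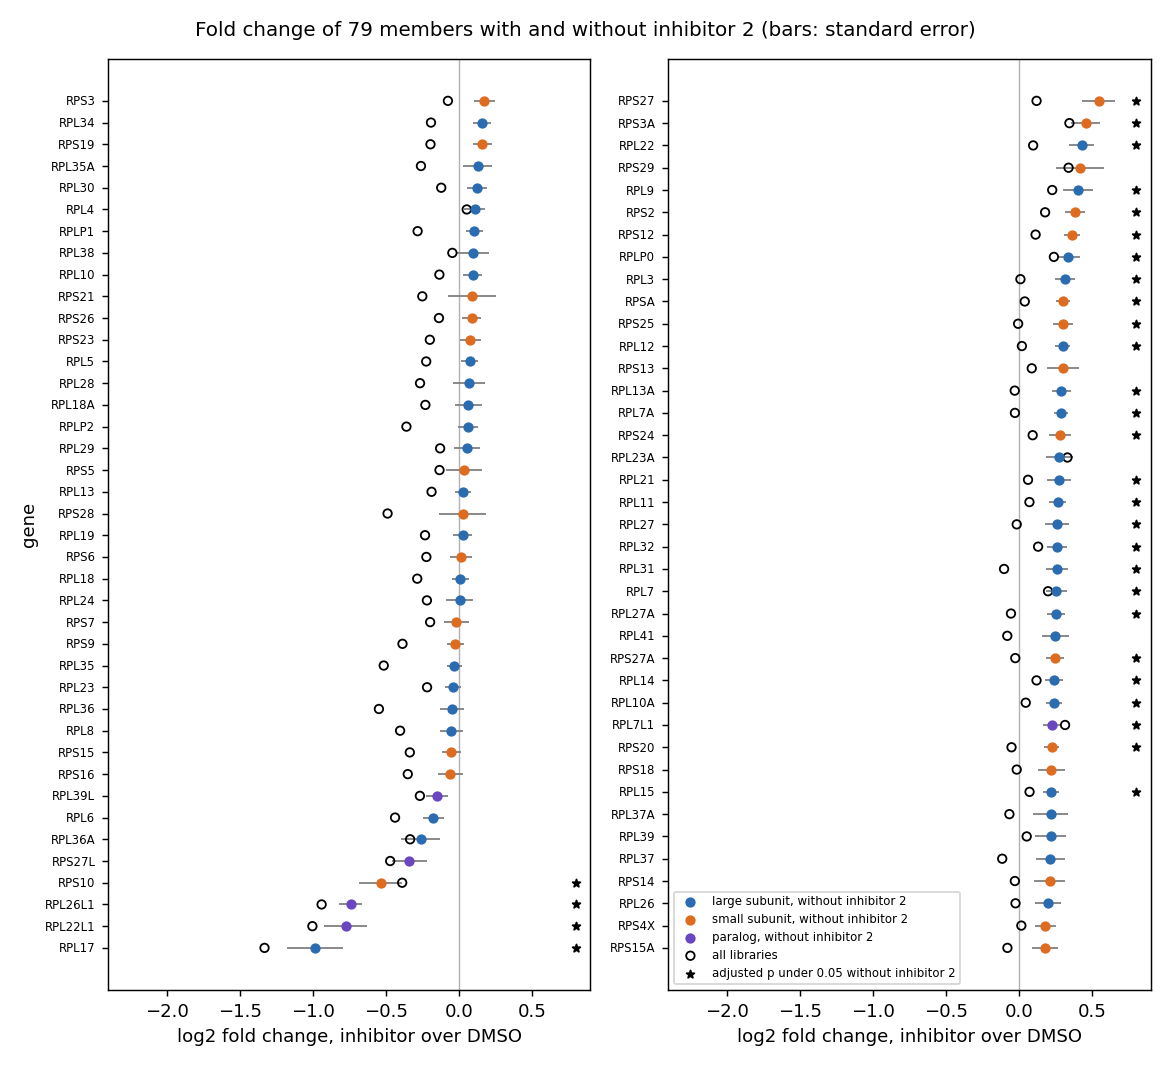
Log2 fold change, inhibitor over DMSO (x axis), of 79 of the 82 tested members (y axis), with all libraries (open circles) and without inhibitor 2 (filled points, bars are standard errors, colours by subunit, stars mark an adjusted p under 0.05). Most filled points lie to the right of 0 while the open circles centre near it, and RPL17, RPL22L1 and RPL26L1 lie far to the left in both.

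Of the 31 small-subunit genes, 11 rose and 2 fell without inhibitor 2, with a median of 0.18. RPS2 (ENSG00000140988, chromosome 16, 1962052 to 1964860) stood at 978, 925 and 1057 FPKM in DMSO 1 to 3 and 1274, 838 and 1300.4 FPKM in inhibitor 1 to 3. Its inhibitor 1 and 3 lay above every DMSO library and inhibitor 2 below, so that the log2 fold change was 0.18 (SE 0.212, limma adjusted p = 0.581) with all libraries and 0.39 (SE 0.0691, limma adjusted p = 0.00792) without inhibitor 2. RPS2 shares 14.5% of its exon bases with a same-strand gene, AC005363.1. RPS12, a protein of the small-subunit beak, stood at 475, 468 and 499 FPKM in DMSO 1 to 3 and 633, 369 and 602 FPKM in inhibitor 1 to 3. The same split was seen here, with a log2 fold change of 0.11 (SE 0.229, limma adjusted p = 0.755) with all libraries and 0.36 (SE 0.0556, limma adjusted p = 0.00488) without inhibitor 2. RPSA, also known as the laminin receptor, stood at 368, 367 and 384 FPKM in DMSO 1 to 3 and 459, 267 and 460.5 FPKM in inhibitor 1 to 3, again with inhibitor 1 and 3 above and inhibitor 2 below all DMSO libraries. Its log2 fold change went from 0.04 (adjusted p = 0.919) to 0.30 (SE 0.05, limma adjusted p = 0.00621) when inhibitor 2 was left out.

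RPS27, a small-subunit protein with a zinc finger, had the largest rise of the members without inhibitor 2. It stood at 266, 266 and 319.8 FPKM in DMSO 1 to 3 and 449, 170.3 and 380.4 FPKM in inhibitor 1 to 3, and its log2 fold change was 0.12 (SE 0.362, limma adjusted p = 0.839) with all libraries and 0.55 (SE 0.113, limma adjusted p = 0.0127) without inhibitor 2. RPS27A, which is made as a fusion with ubiquitin, stood at 187, 181 and 173 FPKM in DMSO 1 to 3 and 223, 121 and 207 FPKM in inhibitor 1 to 3. In this gene too inhibitor 2 was the lowest library and inhibitor 1 and 3 the highest, and it rose by 0.25 without inhibitor 2 (limma adjusted p = 0.0245). RPS3A, which lies near the platform of the small subunit and was named after its values were seen, differed in that inhibitor 2 did not lie below DMSO: its values were 182, 185 and 158 FPKM in DMSO 1 to 3 and 258, 189.9 and 222 FPKM in inhibitor 1 to 3. All 3 inhibitor libraries lay above all DMSO libraries there, and the log2 fold change was 0.35 (SE 0.158, limma adjusted p = 0.173) with all libraries and 0.46 (SE 0.0997, limma adjusted p = 0.0152) without inhibitor 2. RPS20, RPS24 and RPS25 also rose without inhibitor 2, by 0.22 to 0.30 on the log2 scale.

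RPS6, RPS4X, RPS21 and RPS29 were called in neither fit. RPS6, the substrate of the S6 kinases, stood at 192, 191 and 181 FPKM in DMSO 1 to 3 and 204, 116 and 176 FPKM in inhibitor 1 to 3. Inhibitor 1 lay above and inhibitor 2 and 3 below the DMSO libraries, and the log2 fold change was −0.22 (SE 0.219, limma adjusted p = 0.503) with all libraries and 0.01 (SE 0.0765, limma adjusted p = 0.909) without inhibitor 2. RPS4X, the X-linked S4 gene, stood at 306, 319 and 350.2 FPKM in DMSO 1 to 3 and 360.1, 262 and 375 FPKM in inhibitor 1 to 3, with 0.02 and 0.18 on the log2 scale in the same order (adjusted p = 0.955 and 0.0955). RPS21, with the shortest principal mRNA of the members at 344 bases, had one high DMSO library, with 352, 352 and 500.4 FPKM in DMSO 1 to 3 and 438, 207 and 406 FPKM in inhibitor 1 to 3. DMSO 3 was the highest of the 6 for it, and the log2 fold change without inhibitor 2 was 0.09 (SE 0.165, limma adjusted p = 0.682). RPS29, a zinc-finger protein of the small-subunit head, had a log2 fold change of 0.42 without inhibitor 2 (adjusted p = 0.0888).

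Of the 46 large-subunit genes, 17 rose and 1 fell without inhibitor 2, with a median of 0.18. RPL7A, which hosts 4 snoRNA genes, stood at 971, 947 and 963 FPKM in DMSO 1 to 3 and 1180.0, 609 and 1164 FPKM in inhibitor 1 to 3. Inhibitor 1 and 3 lay above the DMSO libraries, which themselves were close together, and inhibitor 2 lay well below them. The log2 fold change was −0.03 (SE 0.278, limma adjusted p = 0.952) with all libraries and 0.29 (SE 0.0465, limma adjusted p = 0.00572) without inhibitor 2. RPL12, a protein at the base of the stalk, stood at 539, 526 and 554 FPKM in DMSO 1 to 3 and 675, 371 and 654 FPKM in inhibitor 1 to 3, with the same order of libraries. It rose by 0.30 on the log2 scale without inhibitor 2 (SE 0.051, limma adjusted p = 0.00675) and had 0.02 with all libraries. RPL13A, which also acts in translational silencing of inflammatory mRNAs, had 648, 623 and 705 FPKM in DMSO 1 to 3 and 809.8, 414 and 799 FPKM in inhibitor 1 to 3. RPL3, a protein near the peptidyl transferase centre, had 313, 315 and 350.4 FPKM in DMSO 1 to 3 and 403, 214 and 409.7 FPKM in inhibitor 1 to 3. Both rose without inhibitor 2, by 0.29 and 0.32 (limma adjusted p = 0.0177 and 0.0137), and both had inhibitor 2 as the lowest library. RPL9, RPL10A, RPL15, RPL21, RPL27, RPL27A, RPL31 and RPL32 also rose without inhibitor 2, by 0.22 to 0.41 on the log2 scale, and inhibitor 2 was the lowest library for each of them.

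RPL8 was called in neither fit. It stood at 668, 685 and 782 FPKM in DMSO 1 to 3 and 671, 329 and 699.6 FPKM in inhibitor 1 to 3. Inhibitor 1 and 3 lay within the DMSO range and inhibitor 2 was the lowest library, so the log2 fold change was −0.40 (SE 0.306, limma adjusted p = 0.39) with all libraries and −0.05 (SE 0.0806, limma adjusted p = 0.638) without inhibitor 2. RPL5 and RPL11 enter the ribosome together with 5S RNA. RPL11 stood at 208, 207 and 219.6 FPKM in DMSO 1 to 3 and 262, 170.1 and 246 FPKM in inhibitor 1 to 3 and rose without inhibitor 2 (0.26, SE 0.0585, limma adjusted p = 0.016). RPL5 stood at 212, 214 and 203 FPKM in DMSO 1 to 3 and 229, 118 and 214 FPKM in inhibitor 1 to 3 and was not called (0.08, SE 0.0579, limma adjusted p = 0.337). The difference between RPL5 and RPL11 was not tested. RPL10, which joins the large subunit late, had 157, 157 and 171 FPKM in DMSO 1 to 3 and 168, 107 and 177 FPKM in inhibitor 1 to 3 and was called in neither fit (−0.13 and 0.09).

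The stalk of the large subunit, which recruits translation factors, is built from RPLP0 and pairs of RPLP1 and RPLP2. RPLP0 stood at 418, 399 and 463 FPKM in DMSO 1 to 3 and 522, 438 and 555 FPKM in inhibitor 1 to 3. Inhibitor 2 lay within the DMSO range for this gene, in contrast to most members, and RPLP0 rose without inhibitor 2 (0.34, SE 0.0781, limma adjusted p = 0.0183) but not with it (0.24, SE 0.15, limma adjusted p = 0.304). RPLP1 stood at 209, 199.9 and 215 FPKM in DMSO 1 to 3 and 230.4, 99.2 and 217 FPKM in inhibitor 1 to 3. RPLP2 stood at 176, 172 and 188 FPKM in DMSO 1 to 3 and 196, 77.1 and 178 FPKM in inhibitor 1 to 3. For both, inhibitor 2 was the lowest library, and neither was called: without inhibitor 2 the log2 fold changes were 0.11 and 0.06 (limma adjusted p = 0.204 and 0.503). RPL14, the longest listed large-subunit gene at 8626 bases, stood at 78.8, 74.9 and 75.8 FPKM in DMSO 1 to 3 and 94.5, 70.5 and 86.5 FPKM in inhibitor 1 to 3 and rose without inhibitor 2 by 0.24 (limma adjusted p = 0.0278).

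Of the 5 paralogs tested, 2 fell and 0 rose with all libraries, and 2 fell and 1 rose without inhibitor 2. RPL22L1 (ENSG00000163584, chromosome 3, 170864875 to 170870483), a close relative of RPL22, stood at 21.4, 18.2 and 17.7 FPKM in DMSO 1 to 3 and 12.5, 6.3 and 9.12 FPKM in inhibitor 1 to 3. All inhibitor libraries lay below all DMSO libraries, with log2 fold changes of −1.002 (SE 0.232, limma adjusted p = 0.0323) with all libraries and −0.78 (SE 0.147, limma adjusted p = 0.00944) without inhibitor 2. With no filter on low values the call with all libraries was lost (limma adjusted p = 0.0724). The partner RPL22, which can be replaced by RPL22L1 in the ribosome, stood at 33.4, 32.9 and 29.5 FPKM in DMSO 1 to 3 and 45.8, 21.2 and 40.9 FPKM in inhibitor 1 to 3, with inhibitor 1 and 3 above and inhibitor 2 below DMSO. RPL22 rose without inhibitor 2 (0.43, SE 0.0846, limma adjusted p = 0.0109) and had 0.10 with all libraries. The ratio of RPL22L1 to RPL22 in FPKM was therefore 0.641, 0.552 and 0.6 in DMSO 1 to 3 and 0.274, 0.297 and 0.223 in inhibitor 1 to 3. The groups did not overlap, and inhibitor 2 lay with the other inhibitor libraries.

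RPL26L1 (ENSG00000037241, chromosome 5, 172958729 to 172969771) stood at 25.6, 25.6 and 25.9 FPKM in DMSO 1 to 3 and 13.8, 9.56 and 16.2 FPKM in inhibitor 1 to 3. Again all inhibitor libraries lay below DMSO, with log2 fold changes of −0.94 (SE 0.189, limma adjusted p = 0.0219) with all libraries and −0.74 (SE 0.0798, limma adjusted p = 0.00161) without inhibitor 2. RPL26, its partner and a protein also known to bind p53 mRNA, stood at 20.3, 22.1 and 20.5 FPKM in DMSO 1 to 3 and 26.3, 14.8 and 22.3 FPKM in inhibitor 1 to 3 and was called in neither fit (−0.02 and 0.20; adjusted p = 0.946 and 0.123). RPL26 shares 14.3% of its exon bases with AC135178.2 on the same strand. The ratio of RPL26L1 to RPL26 was 1.26, 1.16 and 1.26 in DMSO 1 to 3 and 0.526, 0.645 and 0.729 in inhibitor 1 to 3. The groups did not overlap, and inhibitor 2 lay with the other inhibitor libraries. The size of the ratio depends on the listed lengths, 1164 bases for RPL26L1 and 2513 bases for RPL26. By the length of the principal mRNA the mean level over all libraries was 32.0 for RPL26L1 and 90.4 for RPL26, so the paralog stood below its partner on that scale.

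For RPL39L and RPL39, small proteins of the exit tunnel, the ratio was 0.159, 0.137 and 0.141 in DMSO 1 to 3 and 0.107, 0.122 and 0.118 in inhibitor 1 to 3. Here too the groups did not overlap, though the gap was narrow, and neither gene was called (−0.27 and 0.05 with all libraries, −0.15 and 0.22 without inhibitor 2). The ratio of RPS27L, a p53-responsive relative of RPS27, to RPS27 was 0.0318, 0.0311 and 0.0225 in DMSO 1 to 3 and 0.0153, 0.0259 and 0.0141 in inhibitor 1 to 3. Inhibitor 2 lay within the DMSO range and inhibitor 1 and 3 below it, and RPS27L itself had 8.47, 8.28 and 7.21 FPKM in DMSO 1 to 3 and 6.87, 4.4 and 5.38 FPKM in inhibitor 1 to 3 and was called in neither fit (−0.47 and −0.34). RPL7L1, a nucleolar relative of RPL7 needed in ribosome assembly, stood at 10.7, 10.9 and 10.6 FPKM in DMSO 1 to 3 and 13, 15.5 and 12.4 FPKM in inhibitor 1 to 3. All inhibitor libraries lay above all DMSO libraries and inhibitor 2 highest, with 0.32 (SE 0.118, limma adjusted p = 0.114) with all libraries and 0.23 (SE 0.0624, limma adjusted p = 0.0328) without inhibitor 2. RPL7 stood at 259.8, 265 and 239.9 FPKM in DMSO 1 to 3 and 317, 270.1 and 293 FPKM in inhibitor 1 to 3 and also rose without inhibitor 2 (0.26, SE 0.069, limma adjusted p = 0.0297), and the ratio of RPL7L1 to RPL7 overlapped between groups.

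In log2 units the paralog to partner ratio differed between inhibitor and DMSO by −1.18 for RPL22L1, −0.97 for RPL26L1, −0.34 for RPL39L, −0.67 for RPS27L and 0.14 for RPL7L1. In a two-sided exact permutation test over the 6 libraries these gave p = 0.1, 0.1, 0.1, 0.2 and 0.6, and 0.167, 0.167, 0.167, 0.25 and 0.6 after Benjamini-Hochberg adjustment over the 5 pairs. With 3 libraries against 3 the smallest possible p is 0.1, so no pair could pass 0.05. Paralogs and partners can resemble each other in sequence and can have processed copies, so the division of reads between them is uncertain. How alike the sequences of these 5 pairs are was not examined.

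**Figure D4:**
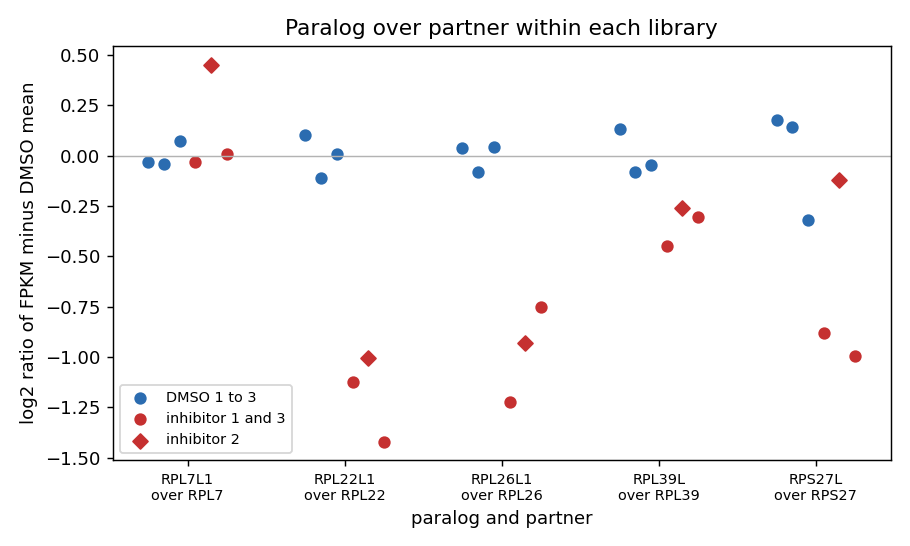
Log2 of the FPKM ratio of each paralog to its partner, minus the mean of the 3 DMSO libraries (y axis), for 5 pairs (x axis), with 1 point per library (blue DMSO, red circles inhibitor 1 and 3, red diamond inhibitor 2). For RPL22L1 and RPL26L1 all inhibitor points lie well below the DMSO points, at mean differences of −1.18 and −0.97, while the points of RPS27L and RPL7L1 overlap between groups.

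RPL17 and RPS10 are genes of low level that share exons with a readthrough or overlapping gene on the same strand, so their reads cannot be assigned to the ribosomal protein alone. RPL17, a large-subunit protein at the exit tunnel, stood at 11.5, 11.8 and 7.45 FPKM in DMSO 1 to 3 and 4.48, 1.73 and 4.7 FPKM in inhibitor 1 to 3, with 24.8% of its exon bases shared with RPL17-C18orf32. All inhibitor libraries lay below DMSO, with −1.33 (SE 0.325, limma adjusted p = 0.0377) with all libraries and −0.98 (SE 0.19, limma adjusted p = 0.0102) without inhibitor 2. The call with all libraries was lost with the replicate block (limma adjusted p = 0.0780), TPM-like scaling (0.0581) or no filter (0.0874), and without any 1 of DMSO 1 to 3, inhibitor 1 or inhibitor 3 (0.0534 to 0.137). RPS10, which sits at the mRNA entry side, stood at 1.76, 2.29 and 2.38 FPKM in DMSO 1 to 3 and 0.983, 1.93 and 1.35 FPKM in inhibitor 1 to 3, with 39.4% shared with RPS10-NUDT3. Inhibitor 2 lay within the DMSO range for RPS10, and it fell in the fit without inhibitor 2 and not with all libraries (−0.54, SE 0.145, limma adjusted p = 0.0304; −0.39 with all libraries). RPL36A, at 2.25 FPKM on average and with 8.40% shared with RPL36A-HNRNPH2, was called in neither fit (−0.33 and −0.26). In all, 13 members share exon bases with a same-strand gene. Among the 69 tested members that do not, 0 rose and 2 fell with all libraries, and 26 rose and 2 fell without inhibitor 2, a choice made after seeing the data.

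In inhibitor 2 the level of other protein-coding genes went with the length of their principal mRNA. The median log2 difference of inhibitor 2 from the mean of inhibitor 1 and 3 was −0.84 for the 526 other genes with mRNAs of 500 to under 1000 bases, −0.39 for those of 1000 to under 2000, −0.08 for those of 2000 to under 4000 and 0.32 for those of 4000 bases or more. For the members it was −0.77 at 500 to under 1000 bases (39 genes) and −0.73 at 1000 to under 2000 (24 genes), and it stayed at −0.68 and −0.65 for the 9 and 4 members with longer principal mRNAs. Members of the shorter class thus lay close to other genes of like length, whereas members with longer annotated mRNAs lay below theirs. Under 500 bases the values were −0.76 for 6 members and −0.72 for 32 other genes, the latter above the −0.84 of the next class. The longer lengths, such as 7686 bases for RPL37 and 4916 for RPL27A, come from annotation, and the forms made by these cells were not examined. The part of misassigned lengths in this gap and in the fits below was not tested. Across the 77 members that are not paralogs, the difference of inhibitor 2 had a Pearson r of 0.08 and a Spearman rho of 0.09 with mRNA length, as a description over genes that share the same libraries. A smooth trend on mRNA length was then removed from each library, an alternative added after seeing the data. With all libraries 15 members then rose and 4 fell, and their median was 0.14. That fit called 3139 of 10551 genes in either direction, with a median of −0.005 over all of them. Without inhibitor 2 the same removal gave 43 rises and 6 falls, with a median of 0.22. It called 5544 of the 10551 genes. The part of RNA quality in inhibitor 2 was not tested.

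**Figure D5:**
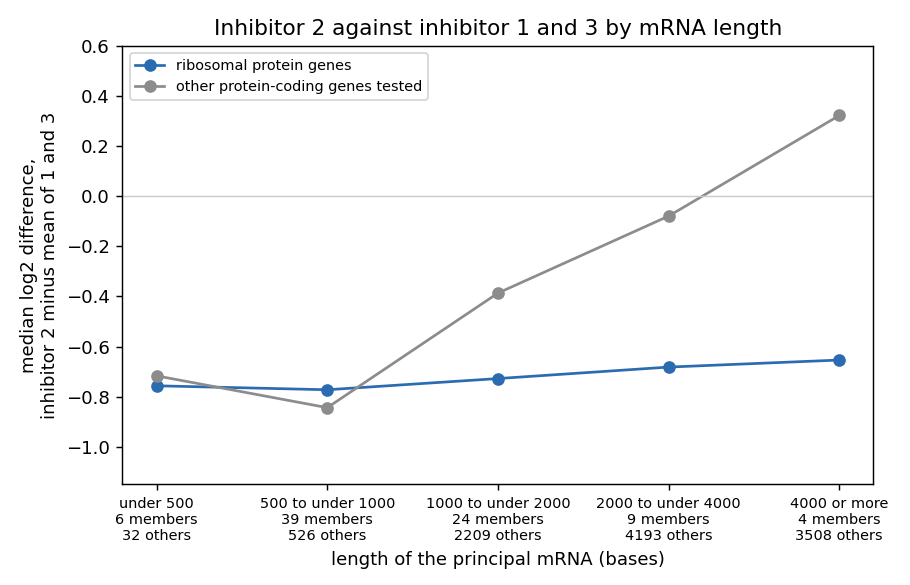
Median log2 difference of inhibitor 2 from the mean of inhibitor 1 and 3 (y axis) by length of the principal mRNA in bases (x axis, with the number of genes under each class), for ribosomal protein genes and other protein-coding genes tested. The members stay between −0.77 and −0.65, while the other genes climb from −0.84 at 500 to under 1000 bases to 0.32 at 4000 bases or more.

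Features that the choice of members did not use were set beside the response without inhibitor 2. Of the 50 tested members with a pyrimidine run at the start, 16 rose and 3 fell, with a median of 0.16, and of the 16 without a run 8 rose and 1 fell, with a median of 0.22. Members without a run of at least 8 bases thus did not stand lower than members with one, and the difference was not tested. RPL12, RPL3, RPL15 and RPS3A are examples without such a run that rose. RPL12 and RPL3 hold shorter runs near the start that begin with C, of 6 and 5 bases. The cut at 8 bases can therefore place a short TOP tract in the group without a run, so the comparison cannot decide on TOP. Of the 28 members with snoRNA genes inside them, 14 rose and 1 fell, with a median of 0.25, and of the 54 other members 15 rose and 4 fell, with a median of 0.10. All 5 paralogs tested are among the 54, with 2 falls, 1 rise and a median of −0.34, so the contrast is partly one with paralogs. This difference was not tested either. Ribosomal protein pseudogenes, whose reads can come from the parent mRNAs, took 0.250% to 0.269% of reads in DMSO and 0.314%, 0.176% and 0.303% in inhibitor 1 to 3, the same order of libraries as the members. Of the 100 pseudogenes that could be tested of 1149, 7 fell and 1 rose with all libraries, and 15 fell and 12 rose without inhibitor 2. Over all genes tested 10.0% fell and 7.18% rose with all libraries, and 23.1% fell and 17.5% rose without inhibitor 2. RPLP1P13 was among the pseudogenes that fell, by 1.44 on the log2 scale with all libraries (limma adjusted p = 0.00728). Its values were 1.71, 3.20 and 2.71 FPKM in DMSO 1 to 3 and 0.204, 0.250 and 0.410 FPKM in inhibitor 1 to 3. It reached 1 FPKM only in DMSO and so entered the test through the group where it is high.

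Translation genes known for a TOP tract outside the ribosomal proteins took 1.98% to 2.05% of reads in DMSO and 2.37%, 2.30% and 2.39% in inhibitor 1 to 3, so all inhibitor libraries lay above DMSO. Of 19 tested, 1 rose and 0 fell with all libraries (median 0.06), and 4 rose and 1 fell without inhibitor 2 (median 0.13). Rises thus made up 5.26% and 21.1%, against 7.18% and 17.5% of all genes tested. Falls made up 0% and 5.26%, against 10.0% and 23.1%. PABPC1, the poly(A)-binding protein, was the rise with all libraries, with 216, 212 and 218 FPKM in DMSO 1 to 3 and 334, 393 and 319 FPKM in inhibitor 1 to 3 (0.69, limma adjusted p = 0.0196). FAU, named after its values were seen, had 127, 128 and 135 FPKM in DMSO 1 to 3 and 112, 51.6 and 108 FPKM in inhibitor 1 to 3 and fell without inhibitor 2 (−0.24, limma adjusted p = 0.0175). Inhibitor 2 was the lowest library for 8 of these 19 genes.

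Mitochondrial ribosomal protein genes, which build the separate ribosome of mitochondria, took 0.431% to 0.447% of reads in DMSO and 0.408%, 0.286% and 0.387% in inhibitor 1 to 3, below DMSO in every inhibitor library. Of 78 tested, 5 fell and 0 rose with all libraries and 28 fell and 5 rose without inhibitor 2, with medians of −0.35 and −0.22. Falls thus made up 6.41% and 35.9%, against 10.0% and 23.1% of all genes tested. Rises made up 0% and 6.41%, against 7.18% and 17.5%. MRPS24 and MRPS2 had the smallest adjusted p, falling by 0.88 and 0.54 on the log2 scale with all libraries (limma adjusted p = 0.0139 and 0.0254). MRPS24 stood at 1.49, 1.02 and 1.55 FPKM in DMSO 1 to 3 and 0.304, 0.257 and 0.258 FPKM in inhibitor 1 to 3. It reached 1 FPKM only in DMSO and so entered the test through the group where it is high. Without inhibitor 2 the cytosolic and mitochondrial medians thus had opposite signs, 0.18 and −0.22; the difference was not tested. Dedicated chaperones and late assembly factors of the cytosolic ribosome had 5 falls and 0 rises of 17 with all libraries and 13 falls and 0 rises without inhibitor 2, with medians of −0.44 and −0.50. LTV1, an assembly factor of the small subunit, fell by 0.82 and SBDS, which releases EIF6 from the large subunit, fell by 0.77 on the log2 scale with all libraries (limma adjusted p = 0.013 and 0.0135). Regulators of ribosomal protein mRNA translation had 0 falls and 1 rise of 13 with all libraries, DEPTOR, an mTOR inhibitor (0.72, adjusted p = 0.0489), and 6 falls and 1 rise without inhibitor 2. LARP1, which binds the TOP tract, had −0.27 with all libraries (adjusted p = 0.209) and fell without inhibitor 2 (−0.38, adjusted p = 0.00931); it was named after its values were seen.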

How the data were processed

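The labels' protocols name a directional kit used on total RNA from the 6 libraries, and the submitters' processing notes name hg38; no aligner, counter or annotation is given in the sources at hand. Whether strand was used in counting is likewise not given, so reads of antisense genes could be mixed. The authors deposited FPKM values for 58735 genes with a listed length, which equals the GENCODE 29 exon union for 58724 of them. FPKM times length was a whole number of reads within 0.01 for 100% of values. The 13578 genes that reached 1 FPKM in 3 or more libraries were fitted as log2(FPKM + 1) with limma 3.58.1 in R 4.3.3 (mean-variance trend, two-sided, Benjamini-Hochberg over the genes tested, threshold 0.05). Fold changes on this scale understate low genes. Libraries of a group differed beyond sampling noise (chi-square per gene 2.48 to 98.7), so each counted as 1 replicate. The members, the gene lists and the rule for named genes (markers, stalk genes, paralogs and partners, extremes of level and length, smallest adjusted p) were chosen with earlier results of these data known. Start windows come from the RefSeq promoter table, and principal mRNA lengths (the median where a gene has several) and snoRNA positions from GENCODE 29. Alternatives changed the pseudocount, filter, scaling, variance model, length and GC trends, test, threshold, replicate block and libraries; those on principal mRNA length and on shared exons were added after seeing the data. The fit was tested on simulated data. A few genes are not reported here by name, though they are included in all counts.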

Additional observations from a re-analysis of the deposited data

How the results depend on the processing

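With all libraries 4 members fell and 0 rose. With limma-voom, size factors computed without mitochondrial and ribosomal protein genes, pseudocounts, filter at 5 FPKM, protein-coding genes only or other variance models, the falls numbered 3 or 4 and the rises 0. Such fits called 1505 to 2554 genes in either direction, the fewest with the filter at 5 FPKM (7382 genes tested). Falls numbered 2 with TPM-like scaling, 2 with the replicate block, 2 when members sharing exon bases were left out, 1 with no filter and 0 at an adjusted p under 0.01. TPM-like scaling and the replicate block called 2114 and 1478 genes in all. No filter called 1533 of 31192 genes tested, and the threshold of 0.01 called 543. Rises numbered 1 with quantile normalization, 1 with a length trend removed and 5 with length and GC trends removed. They numbered 15 with the trend on principal mRNA length removed and 34 without inhibitor 2 with a length trend removed. Over all genes tested these settings called 2090, 2840, 4056, 3139 and 5515 in the same order, in either direction. The genes tested in these settings numbered 13578, but 13569 with the GC trend and 10551 with the mRNA length. Leaving out 1 library at a time gave 0 to 5 falls and 0 to 29 rises, with 478 to 5513 genes called in all. Without inhibitor 2 the 5 falls and 29 rises became 2 and 26 when members sharing exon bases were left out, and leaving out 1 more library gave 3 to 6 falls and 3 to 40 rises (9, 14, 3 and 11 without DMSO 1, DMSO 2, inhibitor 1 and inhibitor 3). The same comparison gave 41 rises with quantile normalization, 38 with limma-voom, and 24 rises and 6 falls with the replicate block. The median of the members moved from −0.09 to between −0.23 and 0.22, and so changed sign. By library it was −0.02, −0.03 and 0.05 in DMSO 1 to 3 and 0.22, −0.60 and 0.14 in inhibitor 1 to 3. The spread between inhibitor replicates was thus wide because of inhibitor 2, and it is no measure of whether these moves are small. The cause of these moves was not tested, except that fits with 1 library less have fewer samples.

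For genes named, the log2 fold change of the fit with all libraries changed sign under some alternatives, including fits without 1 library. Some of these values were near 0 and others were not, such as −0.36 for RPLP2 and −0.28 for RPLP1. With TPM-like scaling the log2 fold change was −0.0142 for RPL12, −0.0242 for RPL3 and −0.018 for RPS4X. With quantile normalization it was 0.0793 for RPL7A, 0.17 for RPL13A, 0.14 for RPS27A, 0.0632 for RPL10 and 0.12 for RPL26. With a length trend removed it was 0.14 for RPL7A, 0.13 for RPL13A, 0.11 for RPS27A and 0.13 for RPL26, and with length and GC trends removed 0.20 for RPL7A, 0.23 for RPL13A, 0.0766 for RPS27A and 0.0764 for RPL26. With the trend on principal mRNA length removed it was 0.27 for RPL7A, 0.23 for RPL13A, 0.0477 for RPL5, 0.29 for RPS27A, 0.0097 for RPS6, 0.0063 for RPL10, 0.30 for RPL26 and 0.053 for RPL39L. Without inhibitor 2 and with a length trend removed it was 0.31 for RPL7A, 0.31 for RPL13A, 0.0691 for RPS21, 0.12 for RPL5, 0.15 for RPLP1, 0.29 for RPS27A, 0.042 for RPS6, 0.0792 for RPLP2, 0.13 for RPL10 and 0.22 for RPL26. Over the fits without 1 library it ran from −0.27 to 0.0935 for RPL10, −0.0475 to 0.26 for RPL11, −0.13 to 0.30 for RPL12, −0.19 to 0.29 for RPL13A, −0.11 to 0.43 for RPL22, −0.19 to 0.20 for RPL26, −0.15 to 0.32 for RPL3, −0.0818 to 0.22 for RPL39, −0.40 to 0.0753 for RPL5, −0.19 to 0.29 for RPL7A, −0.50 to 0.11 for RPLP1, −0.60 to 0.0626 for RPLP2, −0.0276 to 0.36 for RPS12, −0.45 to 0.091 for RPS21, −0.15 to 0.55 for RPS27, −0.19 to 0.25 for RPS27A, −0.0799 to 0.18 for RPS4X, −0.39 to 0.0124 for RPS6, −0.0918 to 0.30 for RPSA.

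Replicate numbers are not stated to pair the samples. Deviations from the group means of DMSO and inhibitor libraries with the same number correlated at −0.02, 0.16 and 0.25. Inhibitor 2 and 3 correlated best with the DMSO library of the same number, and inhibitor 1 with DMSO 3 (0.09). Deviations within a group of 3 depend on each other, so these values cannot decide whether the samples are paired. Depth was 14087260 reads or more per library, so counting error is small beside the replicate spread for all but the members of lowest level.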
